A study of Mus musculus with 36 samples.

Results

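Matrix metalloproteinases (MMPs) are zinc enzymes that cut collagens, basement membrane proteins and other components of the extracellular matrix. Most are made with a propeptide that keeps the enzyme silent until it is removed, and tissue inhibitors of metalloproteinases (TIMPs) bind the active site and block it. In white fat, both families are known to take part in the remodelling of the matrix that surrounds adipocytes as the depot grows. Transcripts of 6 MMPs (Mmp2, Mmp3, Mmp9, Mmp14, Mmp19 and Mmp23) and all 4 TIMPs (Timp1, Timp2, Timp3 and Timp4) were examined across epididymal white adipose tissue (eWAT). The 10 genes were taken by name as those of the 24750 gene rows whose Ensembl ID maps to each symbol, with 1 row per gene, and all 10 passed the filter on low values.

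RNA was taken from whole eWAT of male C57BL/6 mice and gave 36 libraries, 3 in each of 12 groups. Ligatured mice were sequenced singly, and where the other libraries do not each stand for a mouse, p-values measure only the spread between libraries. WT mice or homozygous Adipoq-CCL19-KI mice (CCL19-KI), in which the chemokine gene Ccl19 was inserted at the Adipoq locus so that adipocytes make it, received a normal diet (ND), a 40% high-fat diet (40% HFD) or a 60% HFD for 10 weeks. In 6 of these 12 groups, experimental periodontitis was induced with a ligature for the last 2 weeks, and all mice were 16 weeks old at collection. WT mice came from a separately bred line, so differences between lines other than the inserted gene cannot be told apart from it. The data address how the matrix-degrading enzymes and their inhibitors in this depot vary with diet, with CCL19 made by adipocytes, and with periodontitis.

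Each library held 11962228 to 21581595 reads. Values are edgeR-normalized CPM, which are read counts divided by an effective library size, so that columns do not share 1 total (799716 to 1208061), and 3 reads correspond to 0.142 to 0.250. As a check of the labels, Ccl19 was 0.507 to 4.51 in 17 libraries labelled WT and 5.57 to 34.6 in 17 labelled CCL19-KI. The other 2 libraries went against their genotype labels: the library labelled WT ND without ligature, replicate 2, had a Ccl19 value of 19.2, and the library labelled CCL19-KI 60% HFD without ligature, replicate 3, had 0.687. Gm2564, a predicted gene chosen after its values were seen, was at 41.9 in the former and 0 in the latter, against at most 0.160 in the 17 WT libraries and at least 11.6 in the 17 CCL19-KI libraries. Labels were kept as deposited, and results that change without these 2 libraries are given both ways. All 8 adipocyte markers were found in every library. The summed value of 8 epididymal epithelium markers was above 1000 in 5 libraries, including both of those above, and that of 8 hepatocyte markers ranged from 131 to 40588. Replicates 2 and 3 of the CCL19-KI 60% HFD group without ligature were among these 5. Fits without the 5 left 1 library in that group, so only their effect sizes are given. The library labelled WT ND without ligature, replicate 1, also stood apart, with the highest Lep value of all 36 libraries (4217).

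**Figure D1:**
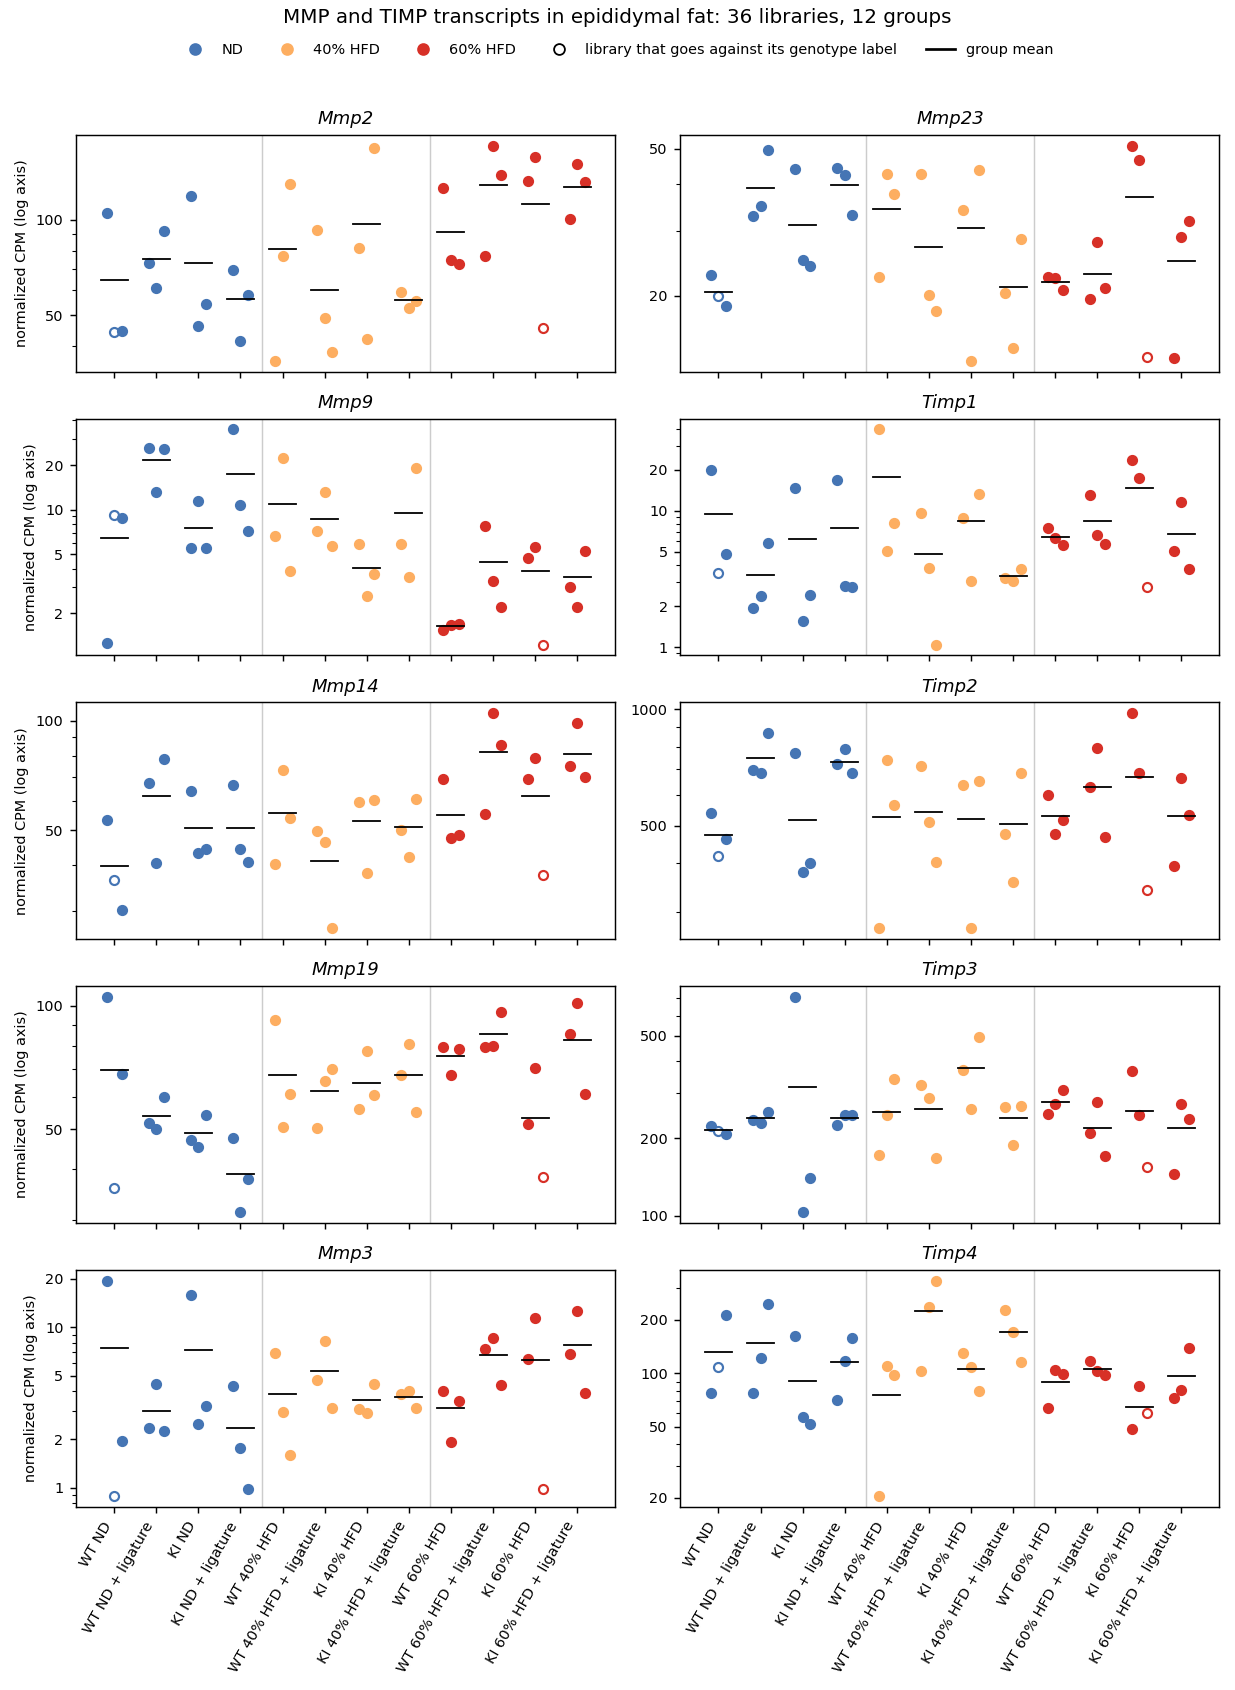
Normalized CPM (log axis) of the 10 genes in all 36 libraries, with 3 points and their mean (line) for each of the 12 groups, coloured by diet. Open circles are the 2 libraries whose Ccl19 goes against the genotype label. Mmp9 points of the 60% HFD groups lie between 1.23 and 7.71, and those of the ND groups reach 34.8.

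The coding sequences hold the known sites by which the enzymes and their inhibitors act. The stretch of each MMP transcript that encodes the zinc-binding site of the catalytic domain is given first, with the codons of the 3 zinc-binding histidines and of the catalytic glutamate in capitals. Sequences are from GENCODE M21 transcripts (GRCm38), 5′ to 3′ on the coding strand, and each lies in a coding exon.
Mmp2 (chr8:92839279-92839311, exon 8): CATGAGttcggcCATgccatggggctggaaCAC
Mmp9 (chr2:164951133-164951165, exon 8): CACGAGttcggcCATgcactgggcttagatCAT
Mmp14 (chr14:54437627-54437659, exon 5): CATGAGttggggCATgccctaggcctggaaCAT
Mmp19 (chr10:128795673-128795705, exon 5): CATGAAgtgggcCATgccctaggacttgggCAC
Mmp3 (chr9:7449775-7449807, exon 5): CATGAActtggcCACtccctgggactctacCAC
Mmp23 (chr4:155651528-155651560, minus strand, exon 5): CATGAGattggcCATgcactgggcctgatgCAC
Any pair of the 6 shares 20 to 27 of these 33 bases. The next site is the cysteine switch of the propeptide, in which a cysteine (codon in capitals) occupies the zinc until the enzyme is activated. A search for its pattern, in which codons for proline, arginine, cysteine and glycine are followed by an aspartate codon 2 codons later, gave 1 match in 5 of the 6 MMPs and 0 in Mmp23.
Mmp2 (chr8:92830765-92830785, exon 2): ccaagaTGTggcaacccagat
Mmp9 (chr2:164948985-164949005, exon 2): ccacgcTGTggtgtcccagac
Mmp14 (chr14:54436151-54436171, exon 3): cctcgcTGTggtgttccggat
Mmp19 (chr10:128794599-128794619, exon 3): ccccgtTGTggtctggaggat
Mmp3 (chr9:7447095-7447115, exon 2): cccaggTGTggtgttcctgat
On the side of the inhibitors, the stretch shown encodes the amino-terminal end of the mature TIMP, which inserts into the active site of the MMP. Capitals mark the codons of the first cysteine, which binds the zinc, and of the cysteine next to it.
Timp1 (chrX:20871111-20871137, exon 2): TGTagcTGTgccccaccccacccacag
Timp2 (chr11:118354986-118355012, minus strand, exon 1): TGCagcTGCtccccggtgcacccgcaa
Timp3 (chr10:86300923-86300949, exon 1): TGCacaTGCtctcccagccatccccag
Timp4 (chr6:115251665-115251691, minus strand, exon 1): TGCagcTGTgcgcctgcgcacccccag
The pattern searched was codons for cysteine, serine or threonine, cysteine, any residue, proline, any residue, histidine, proline and glutamine. All 4 TIMPs hold it, which for a known site of the family is no result of these data. Pairs of them share 16 to 21 of 27 bases.

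Per kilobase of exon, the inhibitor transcripts Timp2 and Timp3 had the highest medians of the 10. The median over the 36 libraries was 149.7 normalized CPM per kb for Timp2, which also helps Mmp14 to activate pro-Mmp2 at the cell surface, and 30.3 for Timp3, the TIMP that stays bound to the matrix. Timp2 lay above Timp3 in all 36 libraries. Among the enzymes, Mmp2 (gelatinase A) had the highest median at 21.9 per kb, followed by Mmp19 at 17.2, Mmp23 at 11.3 and the membrane-bound Mmp14 at 8.99. Timp4, the TIMP most restricted in its tissue distribution, stood between Mmp2 and Mmp19 at 17.7 per kb. Timp1, the TIMP most readily induced in inflamed tissue, had a median of 6.02, Mmp3 (stromelysin-1) 2.14 and Mmp9 (gelatinase B) 1.60. Apart from Timp2 over Timp3 and Timp1 over Mmp3 (34 of 36 libraries), neighbours in this order changed places, with Timp4 above Mmp19 in 16 of 36 libraries and the other neighbours in order in 24 to 27. The widest spread between libraries was that of Timp1 (37.7-fold from lowest to highest CPM), Mmp9 (28.3-fold) and Mmp3 (21.9-fold), and the narrowest was that of Mmp19 (3.36-fold). Some of these genes overlap a neighbour, and whether counting used the strand was not given in the sources used here. Timp1, Timp3 and Timp4 overlap Syn1, Syn3 and Syn2 on the opposite strand, which reached at most 8.09, 6.51 and 16.9 CPM, Mmp19 overlaps Tmem198b on the opposite strand (at most 15.8), and Timp2 overlaps Cep295nl on its own strand (at most 40.4).

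On the 60% HFD, Mmp2, Mmp14 and Mmp19 were higher than on the ND and Mmp9 was lower, when the effects were averaged over genotype and ligature, so that 4 of the 10 genes were called. A gene was called at an adjusted p under 0.05 by limma on log2(CPM + 1), Benjamini-Hochberg over the 17852 genes tested, and fold changes are on that scale. In this comparison 18.6% of all genes tested were called, 10.2% higher and 8.40% lower, so 4 of 10 is to be read against that share. The median log2 fold change of the 10 genes was 0.25, against 0.01 for all genes. No TIMP passed this test. With sample quality weights, which ran from 0.167 to 11.3 per library, 6 of the 10 genes were called, the 4 above with Mmp3 (0.80, limma adjusted p = 0.00514) and Timp1 (1.12, limma adjusted p = 0.00182). The share of all genes called with these weights is not given, so this count cannot be read as particular to the 10 genes. Because bulk tissue was sequenced, more cells that express a gene and more RNA per cell cannot be told apart. On the reads recovered from the values, edgeR called 3 of the 4, with Mmp14 just past the threshold (edgeR adjusted p = 0.0561).

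Mmp9 (chr2:164940780-164955850), a gelatinase best known from neutrophils and macrophages, fell the most. In the 12 ND libraries it ranged from 1.25 to 34.8 normalized CPM with a median of 9.93, in the 12 libraries of the 40% HFD from 2.61 to 22.5 with a median of 5.85, and in the 12 of the 60% HFD from 1.23 to 7.71 with a median of 2.61. All 12 libraries of the 60% HFD lay below the ND median, and 8 of the 12 ND libraries lay above the highest of them. The log2 fold change was -1.51 (SE 0.32, 95% CI -2.16 to -0.85, limma adjusted p = 0.00267). Without ligature, WT libraries read 1.25, 9.18 and 8.85 on the ND and 1.54, 1.67 and 1.69 on the 60% HFD. With ligature, WT libraries read 26.0, 13.2 and 25.5 on the ND and 7.71, 3.29 and 2.21 on the 60% HFD. The low value among the ND libraries was that of WT replicate 1, and ligatured WT mice did not overlap between the diets, as was so for 35.3% of all genes. In CCL19-KI mice without ligature the values were 5.52, 11.5 and 5.48 on the ND against 4.72, 5.62 and 1.23 on the 60% HFD. With ligature they were 34.8, 10.7 and 7.17 against 2.99, 2.22 and 5.29, which did not overlap (36.9% of all genes). The mean was thus lower on the 60% HFD in all 4 pairs of groups, with log2 fold changes between -2.13 and -0.88, none of which passed the test alone (limma adjusted p = 0.0588 to 0.352). Without the 2 libraries that go against their labels the averaged value was -1.29 (limma adjusted p = 0.0113), and Mmp9 was then also called in the ligatured WT and the ligatured CCL19-KI mice (-2.13 and -1.80, limma adjusted p = 0.0442 and 0.0415). Without WT ND replicate 1 it was -1.69 (limma adjusted p = 4.52e-04).

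Mmp2 (chr8:92827291-92853420), which degrades gelatin and basement membrane collagen, rose on the 60% HFD. Its values were 41.4 to 119 (median 59.6) on the ND, 35.9 to 168 (median 57.3) on the 40% HFD and 45.4 to 172 (median 129) on the 60% HFD. Of the 12 libraries of the 60% HFD, 11 lay above the ND median and 7 above the highest ND library, while 5 of the 12 libraries of the 40% HFD lay above the ND median. The log2 fold change against the ND was 0.75 (SE 0.25, 95% CI 0.23 to 1.27, limma adjusted p = 0.0393). The contrast was clearest in ligatured CCL19-KI mice, at 69.4, 41.4 and 58.0 on the ND and 101, 150 and 132 on the 60% HFD, which did not overlap (log2 fold change 1.18, limma adjusted p = 0.110). The single low library of the 60% HFD, at 45.4, was the 1 labelled CCL19-KI whose Ccl19 goes against the label. Without both such libraries the averaged value was 0.84 (limma adjusted p = 0.0263). Of the 36 fits that left out 1 library, 15 lost the call (limma adjusted p of at most 0.0727), 8 of them by leaving out an ND library and 7 a library of the 60% HFD.

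Mmp14 (chr14:54431612-54445364) encodes the membrane-bound MMP that activates pro-Mmp2, and it rose less than Mmp2. It was 30.1 to 78.4 (median 44.3) on the ND, 26.9 to 73.1 (median 50.0) on the 40% HFD and 37.6 to 105 (median 69.6) on the 60% HFD. Again 11 of the 12 libraries of the 60% HFD were above the ND median, and 4 of them were above the highest ND library. The log2 fold change was 0.45 (SE 0.16, 95% CI 0.13 to 0.78, limma adjusted p = 0.0465), close to the threshold, and 20 of the 36 fits that left out 1 library lost the call (limma adjusted p of at most 0.0920). The 250 bases before its start (chr14:54431348-54431597, plus strand, RefSeq, GRCm38.p6) are shown because Mmp14 moved with Mmp2, with the motif GGGCGG (a GC box) in capitals.
Mmp14: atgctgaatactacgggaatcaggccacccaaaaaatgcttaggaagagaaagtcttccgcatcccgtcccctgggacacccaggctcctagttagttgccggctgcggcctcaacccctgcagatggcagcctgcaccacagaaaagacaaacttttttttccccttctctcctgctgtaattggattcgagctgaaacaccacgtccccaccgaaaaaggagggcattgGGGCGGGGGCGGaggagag
GGGCGG, searched on both strands, was found at 2 adjacent places here and in 32.7% of 32851 promoters of that length. Of the 10 genes, 7 had a promoter in the table (8 promoters), and 4 of those 8 promoters held GGGCGG, those of Mmp14, Timp1, Timp2 and Timp3. Mmp2, Mmp9 and Mmp19 had none there, so the promoters of Mmp14 and Mmp2 could not be compared. The AP-1 motif TGANTCA, which reads alike on both strands, was found in 6.75% of all promoters and, among these 8, in that of Mmp3.

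Mmp19 (chr10:128790910-128800824), which encodes an MMP that cuts basement membrane proteins, rose with the smallest SE of the 4 genes. Its values ran from 31.3 to 105 (median 48.7) on the ND, from 50.3 to 92.2 (median 63.1) on the 40% HFD and from 38.1 to 102 (median 79.1) on the 60% HFD. All 12 libraries of the 40% HFD and 11 of the 12 of the 60% HFD exceeded the ND median. The log2 fold change was 0.51 for the 60% HFD (SE 0.14, 95% CI 0.22 to 0.79, limma adjusted p = 0.0138) and 0.35 for the 40% HFD (95% CI 0.07 to 0.64, limma adjusted p = 0.101). The highest ND library, at 105, was WT replicate 1, and without it the value of the 60% HFD was 0.60 (limma adjusted p = 0.00203) and that of the 40% HFD, then called, was 0.44 (limma adjusted p = 0.0266). In ligatured CCL19-KI mice Mmp19 was 47.5, 31.3 and 37.7 on the ND, 67.9, 80.9 and 55.0 on the 40% HFD and 85.3, 102 and 60.8 on the 60% HFD, and neither HFD overlapped the ND (28.9% of all genes did not for the 40% HFD). This was the single call for the 10 genes among the 12 diet comparisons within genotype and ligature state (60% HFD against ND, log2 fold change 1.06, SE 0.28, limma adjusted p = 0.0162, with 12.8% of all genes called). Without the 2 libraries that go against their labels, Mmp19 was also called for the 40% HFD in ligatured CCL19-KI mice (0.79, limma adjusted p = 0.0245, against 0.0865 with all libraries). By edgeR, Mmp9 was called for the 60% HFD there too (log2 fold change -2.37, edgeR adjusted p = 0.0493). In the other diet comparisons, the share of all genes called was, for the 60% HFD against the ND, 3.41% in WT, 2.57% in ligatured WT and 10.2% in CCL19-KI mice. For the 40% HFD against the ND it was 6.03% in WT, 0.207% in ligatured WT, 0.00% in CCL19-KI and 4.92% in ligatured CCL19-KI mice. For the 60% against the 40% HFD it was 9.53% in CCL19-KI mice and 0.00% in the other 3 states. The call was lost without replicate 2 of the ND group or without replicate 1 or 2 of the 60% HFD group (limma adjusted p = 0.0977, 0.0667 and 0.0660). In the same comparison 6 of the 10 genes did not overlap between the groups, against 36.9% of all genes. For this diet the count was 3 in ligatured WT (35.3%), 1 in unligatured WT (24.3%) and 0 in unligatured CCL19-KI mice (18.1%). For the 40% HFD it was 2 in ligatured (28.9%) and 1 in unligatured CCL19-KI mice (12.7%). In WT mice it was 0 (20.7% without and 18.4% with ligature). For the 60% against the 40% HFD it was 2 in unligatured WT (13.3%), ligatured WT (14.6%) and ligatured CCL19-KI mice (16%). It was 0 in unligatured CCL19-KI mice (26.2%).

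**Figure D2:**
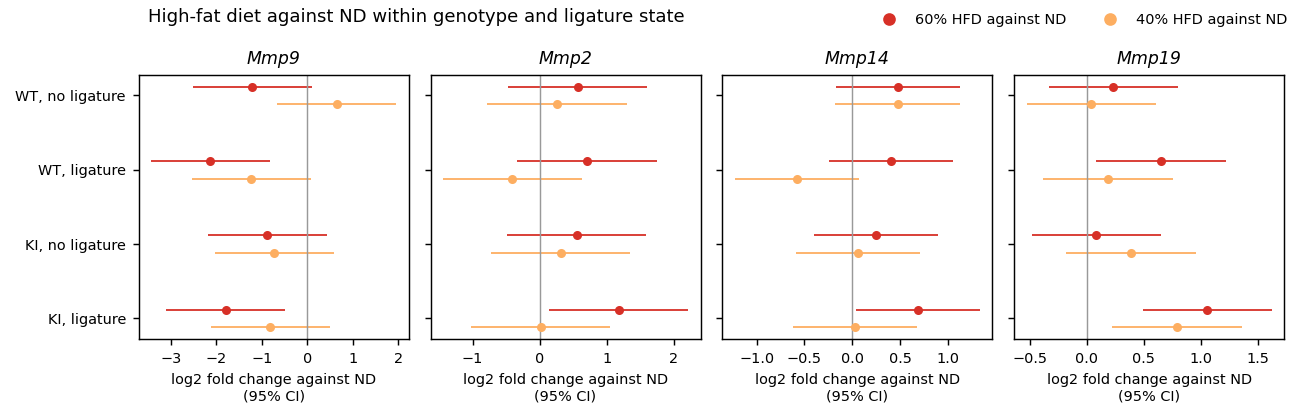
Log2 fold change against the ND (points) with its 95% CI (bars) for the 60% HFD (red) and the 40% HFD (orange), within each genotype and ligature state. All 4 Mmp9 points of the 60% HFD are below 0 (-2.13 to -0.88), and all 4 points of Mmp2, of Mmp14 and of Mmp19 are above 0.

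The other 6 genes did not pass the test in the 60% HFD against the ND, but their intervals differ in width. With all libraries, Timp2 (-0.07, 95% CI -0.46 to 0.32) and Timp3 (0.04, 95% CI -0.41 to 0.49) were bounded to less than 0.50 on the log2 scale in either direction. Timp3 read 708 in the unligatured CCL19-KI ND library of replicate 1, against 103 and 141 in the rest of that group. Leaving out 1 library at a time, its log2 fold change ran from -0.09 to 0.25, and 0 of these fits called it. Mmp3 (0.48, 95% CI -0.23 to 1.19) and Timp1 (0.59, 95% CI -0.24 to 1.41) had intervals that reach past 1 on that scale. Timp1 was above the ND median in 11 of 12 libraries of the 60% HFD, where it read 2.75 to 23.7 (median 6.42), but 3 ND libraries read 14.6 to 20.0 in a group with a median of 3.17. Mmp23 (-0.32, 95% CI -0.76 to 0.11) and Timp4 (-0.33, 95% CI -0.89 to 0.22) were below the ND median in 10 of 12 libraries each. The limma adjusted p of these 6 genes was 0.286 to 0.912.

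With the 40% HFD, 0 of the 10 genes were called against the ND, with 9.21% of all genes called. By limma, 1 of them (Mmp19) had an unadjusted p under 0.05, as had 4739 of the 17852 genes tested, and edgeR called 0. With sample quality weights, Mmp19 (0.31, limma adjusted p = 0.0219), Timp1 (0.81, limma adjusted p = 0.0404) and Timp3 (0.53, limma adjusted p = 0.0112) were called. Leaving out 1 library at a time, the value of Timp3 ran from 0.11 to 0.45 (limma adjusted p of at least 0.0556). Without the 5 libraries rich in epididymal markers the value of Mmp19 was 0.34. Of 60% against 40% HFD, 0 were called by limma, with 0.745% of all genes called, and 0 by edgeR. By limma, 3 of the 10 had an unadjusted p under 0.05, to be read against 2356 of the 17852 genes tested. These 3 were Mmp2 (log2 fold change 0.71, limma adjusted p = 0.199), Mmp9 (-0.97, limma adjusted p = 0.151) and Mmp14 (0.46, limma adjusted p = 0.180). Without the 5 libraries rich in epididymal markers the value of Mmp14 was 0.57. The 3 diet comparisons share their groups, so the values are not independent.

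**Figure D3:**
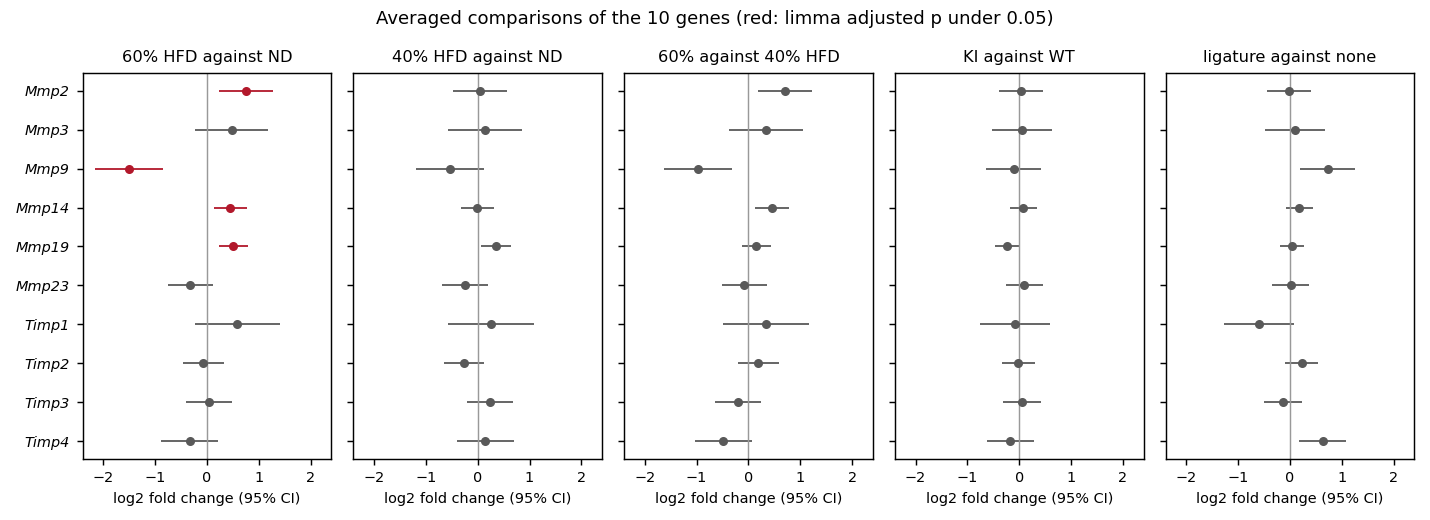
Log2 fold change (points) with its 95% CI (bars) of the 10 genes in the 5 comparisons averaged over the other factors, with called genes in red. The 4 called genes are in the 60% HFD against the ND, from -1.51 for Mmp9 to 0.75 for Mmp2, and all 10 values of CCL19-KI against WT lie between -0.23 and 0.10.

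For CCL19-KI against WT mice, no gene was called with all libraries at equal weight and without a covariate. Mmp19 was called lower in some of the other fits. Averaged over diet and ligature, 0 of 10 were called by limma and 0 by edgeR, with 0.459% of all genes called. At an unadjusted p under 0.05 there were 0 of the 10, against 3021 of the 17852 genes tested. The log2 fold changes of CCL19-KI against WT lay between -0.23 and 0.10. The lowest was that of Mmp19, at 35.9 to 105 (median 68.1) in the 18 WT libraries and 31.3 to 102 (median 55.5) in the 18 CCL19-KI libraries (-0.23, 95% CI -0.46 to 0.00465, limma adjusted p = 0.306). Without the 5 libraries rich in epididymal markers, this difference was -0.35. The narrowest bounds were those of Mmp19, Mmp14 (0.08, 95% CI -0.18 to 0.35) and Timp2 (-0.02, 95% CI -0.34 to 0.30), and the widest those of Timp1 (-0.07, 95% CI -0.75 to 0.60). Within the 6 pairs of diet and ligature, 0 of the 10 genes were called by limma, 0 by edgeR and 0 at an unadjusted p under 0.05, where 16.6%, 0.00560% and 16.8% of all genes were called without ligature on the ND, the 40% and the 60% HFD, and 1.03%, 0.0112% and 0.0112% with ligature. In the same order, 5898, 1185 and 5663 of the 17852 genes tested had an unadjusted p under 0.05 without ligature, and 2257, 568 and 443 with ligature. Without ligature, 1, 0 and 0 of the 10 genes did not overlap between the genotypes, against 28.1%, 14.2% and 30.7% of all genes. With ligature the counts were 1, 0 and 0, against 18.9%, 8.97% and 11.9%. The direction for Mmp19 rests on genotype labels that 2 libraries contradict. Without them, Mmp19 was called lower in unligatured CCL19-KI mice than in WT mice on the ND (-0.79, limma adjusted p = 0.0282), and 0 genes were called in the average. That comparison then had 2 WT libraries, at 105 and 68.3, against 47.1, 45.3 and 54.1. With all libraries and the summed value of macrophage markers as a covariate, Mmp14 was called higher there (0.73, limma adjusted p = 0.0315). With sample quality weights, Timp4 on the ND (-1.52, limma adjusted p = 0.00347), Mmp19 on the ND with ligature (-0.67, limma adjusted p = 3.08e-04) and Mmp3 on the 60% HFD (1.53, limma adjusted p = 0.0444) were called.

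Ligature was set against no ligature to ask whether oral inflammation was accompanied by changes in this distant depot. Averaged over diet and genotype, 0 of the 10 genes were called by limma and 0 by edgeR, with 0.325% of all genes called. By limma, 2 of the 10 had an unadjusted p under 0.05, to be read against 2885 of the 17852 genes tested. Timp4 was 20.5 to 212 (median 91.7) in 18 unligatured and 70.9 to 332 (median 117) in 18 ligatured libraries, with a log2 fold change of 0.64 (95% CI 0.18 to 1.09, limma adjusted p = 0.170). Mmp9 was 1.23 to 22.5 (median 5.10) against 2.21 to 34.8 (median 7.17), with a log2 fold change of 0.73 (95% CI 0.19 to 1.26, limma adjusted p = 0.179). Both ranges overlapped widely. Their largest differences stood in different groups of mice, on the ND in WT mice for Mmp9 (21.6 against 6.43 on average, log2 fold change 1.83, limma adjusted p = 0.0768) and on the 40% HFD in WT mice for Timp4 (224 against 76.0, 1.71, limma adjusted p = 0.237). Timp4 read 103, 237 and 332 with ligature and 20.5, 110 and 97.9 without in the latter. Without the 2 libraries that go against their labels, the rise of Mmp9 with ligature in WT mice on the ND was called (2.20, limma adjusted p = 0.0404), the unligatured group then holding 1.25 and 8.85. Timp1 leaned the other way, at a median of 6.85 without and 3.76 with ligature (-0.60, 95% CI -1.28 to 0.07, limma adjusted p = 0.364). Without the 5 libraries rich in epididymal markers, the values were 0.81 for Timp4 and -1.07 for Timp1. With the hepatocyte sum as a covariate Timp4 was called (0.70, limma adjusted p = 0.0406). Over the 6 ligature comparisons within diet and genotype, 0 of the 10 genes were called by limma or edgeR, where 6.73%, 0.00% and 0.00% of all genes were called in WT mice on the ND, the 40% and the 60% HFD, and 1.37%, 0.00% and 5.66% in CCL19-KI mice. An unadjusted p under 0.05 was found for Mmp9 and Mmp23 in WT mice on the ND, for Timp4 in WT mice on the 40% HFD and for Mmp19 in CCL19-KI mice on the 60% HFD. Of the 17852 genes tested, 4367, 2675 and 213 were at that level in WT mice on the ND, the 40% and the 60% HFD. In CCL19-KI mice they were 3235, 302 and 4560. In WT mice on the ND, 4 of the 10 genes did not overlap between ligature and none, against 29.5% of all genes. In WT mice the count was 0 on the 40% HFD (15.5% of all genes) and 3 on the 60% HFD (10.5%). In CCL19-KI mice it was 0 on the ND, the 40% and the 60% HFD (17.1%, 8.52% and 23.3%).

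Whether 1 factor changed the effect of another was tested with 5 interaction contrasts, in each of which 0 of the 10 genes were called by limma or edgeR, and 2 values had an unadjusted p under 0.05. The share of all genes called was 0.00% and 0.476% for the genotype effect on the 40% and the 60% HFD against the ND. It was 0.00560% for the ligature effect between genotypes, and 0.00560% and 0.00% for the ligature effect on the 40% and the 60% HFD against the ND. In the same order, 1964, 3988, 1925, 1707 and 2559 of the 17852 genes tested had an unadjusted p under 0.05. The ligature effect on Mmp19 was 0.70 higher on the 60% HFD than on the ND on the log2 scale (95% CI 0.13 to 1.27, limma adjusted p = 0.258), and this difference was called without the 2 libraries that go against their labels (0.79, limma adjusted p = 0.0481). The ligature effect on Mmp23 was 1.04 lower on the 40% HFD than on the ND (difference -1.04, 95% CI -1.91 to -0.17, limma adjusted p = 0.412).

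Across the 36 libraries, Mmp2, Mmp14, Mmp23 and Timp2 ran partly together. Correlations are of log2(CPM + 1), are given as a description, and rest on libraries that share diet, cell makeup and sequencing. Among 11797 genes with a mean of at least 5, the gene most like Mmp14 was Mmp2 (Pearson r = 0.83, Spearman rho = 0.85). Without the 2 libraries farthest from the median of Mmp2, r was 0.83, and within the 12 groups it was 0.80. Mmp2 itself was most like Lum, which encodes the collagen-binding proteoglycan lumican (r = 0.87), followed by Rab31 and the collagen-degrading cathepsin Ctsk. For Mmp23 and Timp2 r was 0.83 (within groups 0.905, over the 12 group means 0.65). Within groups Timp2 also followed Mmp2 (0.76) and Mmp14 (0.73). Over the 36 libraries Timp2 reached 0.55 with Mmp2 and 0.57 with Mmp14, and over the 12 group means 0.09 and 0.31. The genes most like Mmp23 were Fkbp10 (r = 0.91), a chaperone of collagen, and Rcn3, and the gene most like Timp2 was Cd34 (r = 0.91), a surface marker of adipose progenitors.

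Mmp9 followed a different course. Its nearest gene was Cfd, which encodes the adipocyte product adipsin (r = 0.84, rho = 0.88, within groups 0.68), and it ran against Mmp19 (r = -0.49). Cfd had a median of 3665 on the ND, 1816 on the 40% HFD and 474 on the 60% HFD. Mmp19 was most like Lipa, the lysosomal acid lipase (r = 0.88, within groups 0.86), whose median was 76.9 on the ND and 175 on the 60% HFD. The nearest gene was Fgd3 for Mmp3 (0.85), Mad2l1 for Timp1 (0.79), Prss23 for Timp3 (0.83) and Ebf1, a factor of adipocyte differentiation, for Timp4 (0.84).

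**Figure D4:**
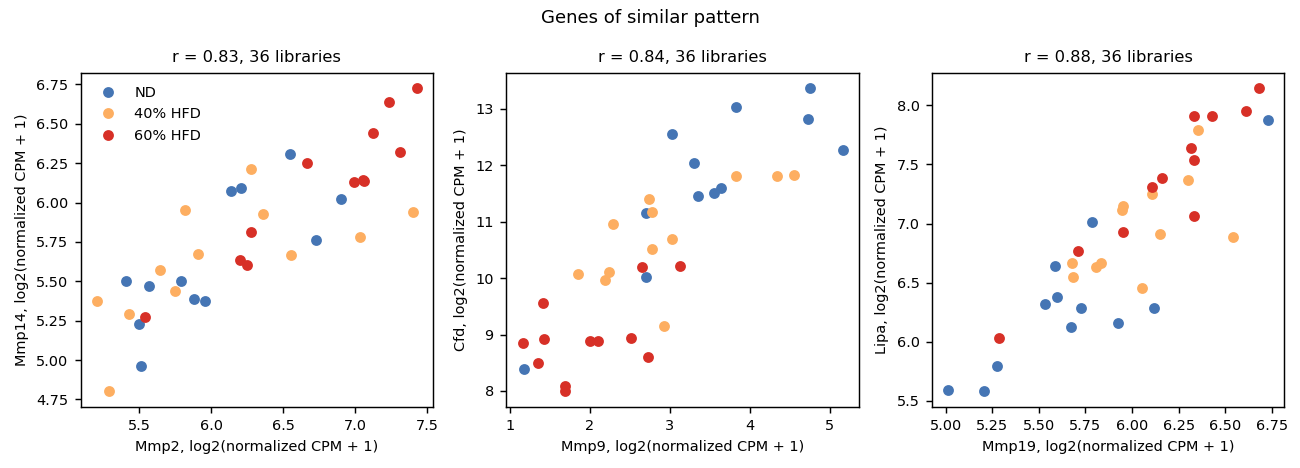
Log2(normalized CPM + 1) of Mmp2 against Mmp14, of Mmp9 against Cfd and of Mmp19 against Lipa in the 36 libraries, coloured by diet. Points rise together in each panel (r = 0.83, 0.84 and 0.88), and libraries of the 60% HFD lie at the low end of Mmp9 and Cfd.

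Marker levels of other cells moved with the diets as well. The counts called on the 60% HFD are to be read against 10.2% of all genes called higher and 8.40% lower. Of 8 markers of lipid-associated macrophages, 6 were called higher on the 60% HFD than on the ND, with 0 markers at 0 in any library. Lpl, which adipocytes also express, made up a median of 95.8% of their summed value (1922 to 10114 on the ND and 3982 to 12067 on the 60% HFD), and the other 7 summed to 89.3 to 922 (median 132) on the ND and 229 to 1034 (median 482) on the 60% HFD. Of 8 general macrophage markers 2 were called higher and 1 lower (summed 861 to 3486, median 1809, against 851 to 2839, median 2098). Lyz2 had the highest median of the 8 over all libraries (851). With the macrophage sum as a covariate, the log2 fold changes on the 60% HFD were 0.55 for Mmp2, -1.57 for Mmp9, 0.32 for Mmp14 and 0.45 for Mmp19, and all 4 were called, with Mmp23 called too (-0.48, limma adjusted p = 0.0398). Of 7 neutrophil markers, 5 passed the filter and 2 were called higher (summed 4.81 to 42.4, median 8.73, against 8.49 to 45.1, median 20.1). Mpo was at 0 in 17 libraries, Cxcr2 in 3, Retnlg in 1, and S100a8, S100a9, Csf3r and Elane in 0. Of 8 progenitor and fibroblast markers 0 were called on the 60% HFD by limma. Their sum, of which Gsn made up a median of 89.3%, was 3616 to 9883 (median 7173) on the ND and 3710 to 7187 (median 4915) on the 60% HFD, and without Gsn the medians were 680 and 590.3. With ligature, 1 of these 8 markers was called higher, where 0.325% of all genes were called. The median sum was 7065 with ligature against 4424 without (690 and 552 without Gsn). Of 8 adipocyte markers, 1 was called higher and 2 lower (summed 7394 to 26274.5, median 16978, against 9398 to 19209.5, median 12368). Of 8 hepatocyte markers 7 were called higher on the 60% HFD (summed 131 to 27347, median 3495, against 880 to 39722, median 13883). With the hepatocyte sum as a covariate all 4 genes were called (0.95 for Mmp2, -1.44 for Mmp9, 0.61 for Mmp14 and 0.46 for Mmp19). Without the 5 libraries rich in epididymal markers the values in the same order were 0.85, -1.16, 0.55 and 0.44. A summed value as a covariate does not measure the part of a cell type, and the part of any of these cell types in the results was not tested. The sums of the lipid-associated macrophage, neutrophil, progenitor and adipocyte markers were not used as covariates.

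Related genes, taken from lists, moved on the 60% HFD in both directions. Their counts are to be read against the 10.2% of all genes called higher and the 8.40% called lower in this comparison. Of 14 further MMP genes, 10 passed the filter, of which 3 were called higher and 3 lower. Mmp12, the elastase of macrophages, went from 0.483 to 207 (median 4.80) on the ND to 14.0 to 310.4 (median 66.3) on the 60% HFD, with a log2 fold change of 3.28 (SE 0.56, limma adjusted p = 0.000520). Its high ND library, at 207, was again WT replicate 1. Mmp15, a membrane-bound MMP, rose by 0.84 and Mmp11 (stromelysin-3) by 0.80, the latter called also in 60% against 40% HFD (0.91, limma adjusted p = 0.0334). Mmp16 (-0.75), Mmp24 (-0.67) and Mmp17 (-0.46) fell at means of 0.726 to 3.25 CPM, and these 3 were called lower on the 40% HFD too (-0.62, -0.57 and -0.59). Their highest values, 4.47, 8.70 and 6.72, all stood in ligatured CCL19-KI libraries on the ND. In that group the summed value of smooth muscle markers ran from 178 to 5587 (median 3364). The part of such tissue in these differences was not tested. Of 15 ADAM and ADAMTS proteases, which shed surface proteins or cut proteoglycans, 6 rose and 1 fell, led by Adam8 (1.95), Adam12 (1.69), the aggrecanase Adamts5 (0.86) and Adamts4 (0.67), with Adam33 at -0.75.

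Of 15 activators and inhibitors 4 were called higher on the 60% HFD, and 0 lower. Here and for the substrates below, 10.2% of all genes were called higher and 8.40% lower. Plg, which encodes plasminogen, whose active form cleaves pro-MMPs (3.07, limma adjusted p = 0.0128), and Klkb1, plasma prekallikrein (2.04, limma adjusted p = 0.0268), are known as genes of the liver, and the hepatocyte markers above moved with them. The others were Tfpi2, an inhibitor of serine proteases (1.37, limma adjusted p = 0.00501), and Cd44, a hyaluronan receptor that can hold MMPs at the cell surface (0.89, limma adjusted p = 0.0170). Of 18 matrix substrates 5 were called higher and 0 lower, among them the basement membrane collagens Col4a2 (1.05) and Col4a1 (0.65), the matricellular gene Sparc (0.94) and Col6a2 (0.66), and the limma adjusted p of the 5 ran from 0.00329 to 0.0428. The median log2 fold change of the 18 substrates was 0.41. On the 40% HFD, Adamts5 (0.71), Tfpi2 (1.34), Plg (3.88), Klkb1 (2.77), Serpinf2 (2.55) and Fn1, which encodes fibronectin (0.57), were called higher. Of all genes, 9.21% were called in that comparison. The hepatocyte markers had a median sum of 3495 on the ND and 15712.5 on the 40% HFD, and their part in these calls was not tested. For CCL19-KI against WT and for ligature against none, 0 genes of these 4 lists were called by limma, where 0.459% and 0.325% of all genes were called.

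**Figure D5:**
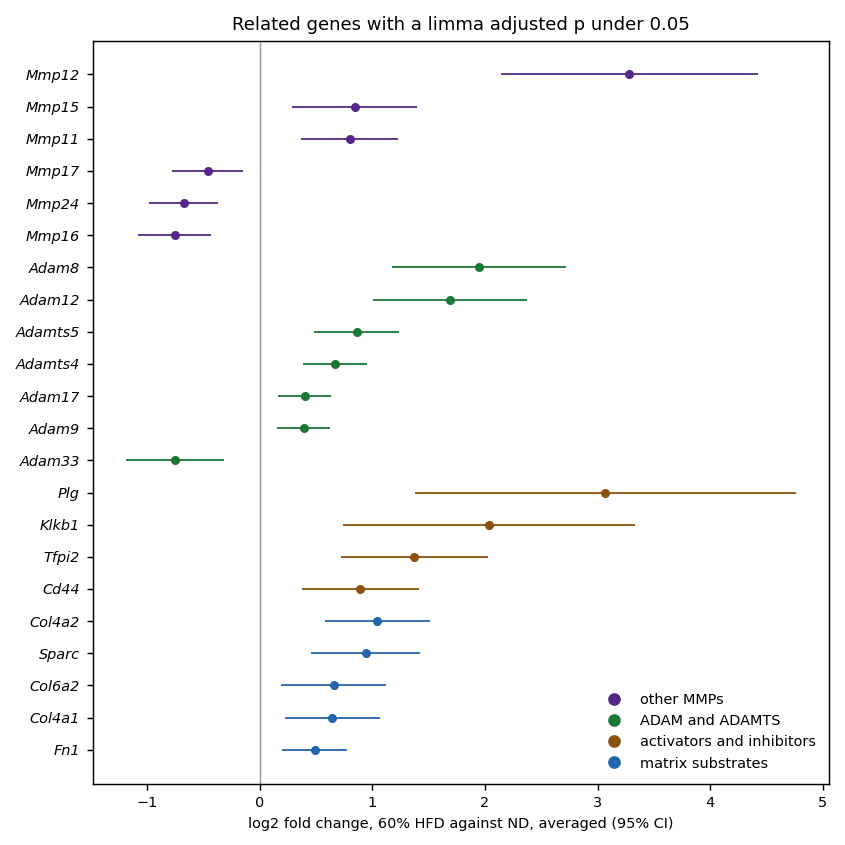
Log2 fold change (points) with its 95% CI (bars) on the 60% HFD against the ND, averaged over genotype and ligature, of the related genes with a limma adjusted p under 0.05. Mmp12 (3.28) is the highest of the other MMPs, and Adam33, Mmp16, Mmp17 and Mmp24 are below 0.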

How the data were processed

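Whole eWAT was freed of lymph nodes, and its RNA was extracted with TRIzol and a PureLink kit per the labels (the paper's methods name the PureLink kit alone for eWAT), depleted of rRNA and sequenced as directional libraries. The deposited values are a normalized signal per gene, made by the authors with edgeR as CPM from RSEM read counts (Trimmomatic 0.38, RSEM 1.3.0, Bowtie2). The paper's methods name the build mm10 and the submitters' processing notes GRCm39, and no coordinate was taken from the table. In every library 100% of values were whole multiples of what 1 read is worth (tolerance 0.01 reads), which gave back 11962228 to 21581595 reads per library (median 15573273) and 1 read as 0.0472 to 0.0834 CPM. In any library, 3 reads amount to at most 0.250 CPM.

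Of the 24750 genes, the 17852 that reached 1 CPM in 3 or more of the 36 libraries were tested with limma 3.58.1 in R 4.3.3 (trend, log2 of value + 1, 12 groups), with 24 pairwise, 5 averaged and 5 interaction contrasts and Benjamini-Hochberg adjustment within each contrast. The samples were grouped by their labels. The series text speaks of ligature in all groups, and the sample labels, with 18 ligatured libraries, were followed. Alternatives were edgeR 4.0.16 on the recovered reads, other pseudocounts, filters, scalings, weights, a replicate block and leaving out each library. Symbols and coordinates are from GENCODE M21 (GRCm38), with 124 identifiers unmatched, and promoters from RefSeq (GRCm38.p6). Replicate libraries differed beyond sampling noise, and 0 columns were left unused. Figures and joins used Python 3.11.15.

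The 10 genes and the marker and pathway lists were chosen with earlier results of these data known. All 10 genes are described, of each list at most the 4 genes with the largest called change per direction are named, and the genes most like each are the 3 with the highest Pearson correlation among genes with a mean of at least 5.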

Additional observations from a re-analysis of the deposited data

How the results depend on the processing

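The directions of the 5 called fold changes held under every setting tried. Leaving out 1 library at a time, the log2 fold change on the 60% HFD against the ND ran from 0.67 to 0.89 for Mmp2, from 0.38 to 0.53 for Mmp14, from -1.69 to -1.35 for Mmp9 and from 0.41 to 0.60 for Mmp19, with the last 2 called in 36 of 36 fits, and for Mmp19 in ligatured CCL19-KI mice from 0.89 to 1.26. The number of genes called then ran from 2 to 4 for the 60% HFD, 0 to 1 for the 40% HFD, 0 to 3 over the 12 diet pairs, 0 to 1 over the 6 genotype pairs, 0 to 1 for the ligature interactions, and 27 to 45 for the related genes (32 with all libraries). The diet pairs had 0 calls without ligatured CCL19-KI ND replicate 2, 60% HFD replicate 1 or replicate 2, and 3 without WT ND replicate 1 or CCL19-KI ND replicate 1. The count for the 60% HFD fell to 2 in 14 of the 36 fits. Under quantile normalization, which moved the median of all genes by up to 0.105, the 60% HFD had 2 calls, the diet pairs 2, and Mmp2 (0.65, limma adjusted p = 0.0827) and Mmp14 (0.34, limma adjusted p = 0.160) were not called. Mmp14 was also not called without a filter (limma adjusted p = 0.0579), and edgeR called 2 genes over the diet pairs. Sample quality weights gave more calls: 6 for the 60% HFD, Mmp3 and Timp1 added, 3 for the 40% HFD, 3, 11 and 21 over the genotype, ligature and diet pairs, 1 and 5 for the genotype and ligature interactions, and 79 for the related genes. Fits of only the 2 groups compared gave 4 over the diet pairs. The cause of these differences was not tested. The share of all genes called is given only for limma with all libraries at equal weight and no covariate. Counts from the other settings, here and below, cannot be read against such a share.

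The following settings were chosen after seeing the data. Without the 2 libraries that go against their labels, 1 gene was called over the genotype pairs, 1 over the ligature pairs, 4 over the diet pairs and 1 for the ligature interactions. The fit without the 5 libraries rich in epididymal markers left 1 library in the unligatured CCL19-KI group on the 60% HFD, and no counts are given for it. With the hepatocyte sum as a covariate, 1 gene was called for ligature, 3 over the ligature pairs and 4 over the diet pairs, and with the macrophage sum 1 over the genotype pairs, 1 over the ligature pairs and 4 over the diet pairs.

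Replicate numbers did not pair the samples: deviations from group means correlated at a median of -0.024 over 198 pairs with the same number and 0.021 over 396 others. With the replicate block, 4 genes were called for the 60% HFD, 1 over the diet pairs and 33 related genes, and no call of the 10 genes changed. With 3 libraries a group, pairwise intervals are wide, and Mmp3, Mmp9 and Timp1 are the least abundant.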
